A study of Rattus norvegicus with 12 samples.

Results

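*B2m* and *Cd74*, which encode the partner chains of the major histocompatibility complex (MHC) proteins of class I and class II, were examined in the retinas of Royal College of Surgeons (RCS) rats. They were taken by their Ensembl identifiers, where *B2m* (ENSRNOG00000017123) had to lie on chromosome 3 and *Cd74* (ENSRNOG00000018735) on chromosome 18. Both were found, so that 2 of the 32883 genes in the count files are described. Whole retinas were sequenced as poly(A)-selected RNA in 12 libraries, with 3 libraries for each combination of age (postnatal day 21, p21, or postnatal day 60, p60) and line. The immunocompetent line was labelled WT and male with the genotype RCS-p+, and the athymic line was labelled female with the genotype RCS-p+/Foxn1mu. All rats, the WT group included, carried the RCS mutation of *Mertk*, which impairs the uptake of shed photoreceptor outer segments, and no rat without retinal degeneration was among the groups. The effect of age and that of advancing degeneration therefore cannot be told apart, nor can the line and the labelled sex.

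MHC class I proteins are carried by nearly all nucleated cells and present peptides to CD8+ T cells, where the class I heavy chain needs beta-2-microglobulin, the product of *B2m*, to fold and to reach the cell surface. The same light chain also joins class I-like proteins such as the neonatal Fc receptor. MHC class II proteins present peptides to CD4+ T cells and are made mainly by professional antigen-presenting cells, such as dendritic cells, B cells and activated macrophages and microglia. *Cd74* encodes the invariant chain, which fills the peptide groove of newly made class II dimers, guides them to endosomes and is then degraded there. It also serves as a receptor for macrophage migration inhibitory factor. Microglia of a resting retina carry little class II protein. The athymic line bears a mutation of *Foxn1*, a transcription factor of the thymic epithelium, and rats without functional *Foxn1* make few T cells.

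In the Rnor_6.0 build that the count files use, *B2m* spans chr3:114087287-114093309 on the plus strand with 4 exons, and *Cd74* spans chr18:56071478-56080849 on the plus strand with 9 separate exonic blocks. Their exonic lengths were 1827 and 1391 bp, respectively, and no other annotated gene overlapped either span. To show what lies before the start of each gene, the 250 bases upstream were read from RefSeq on the GRCr8 build, at chr3:129549080-129549329 for *B2m* and chr18:56526956-56527205 for *Cd74*, both on the plus strand. The capitals mark every match, on either strand, to the 6 motifs searched.

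B2m: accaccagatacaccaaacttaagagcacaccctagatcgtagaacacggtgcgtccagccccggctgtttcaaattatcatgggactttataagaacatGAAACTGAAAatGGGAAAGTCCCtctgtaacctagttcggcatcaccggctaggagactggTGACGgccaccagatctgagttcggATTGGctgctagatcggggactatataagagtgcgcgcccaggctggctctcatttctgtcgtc

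Cd74: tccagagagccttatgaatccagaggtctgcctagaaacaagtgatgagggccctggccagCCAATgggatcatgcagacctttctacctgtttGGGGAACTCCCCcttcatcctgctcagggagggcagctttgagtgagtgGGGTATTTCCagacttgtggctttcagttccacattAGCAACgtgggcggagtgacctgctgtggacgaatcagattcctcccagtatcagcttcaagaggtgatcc

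The core of the interferon-stimulated response element (GAAANNGAAA) was found in the *B2m* window, starting 150 bases before the gene, and was not found in that of *Cd74*, where 3.41% of the 33469 RefSeq windows of the same length held it. The kappa B motif (GGGNNNNNCC) was found in both windows, with 2 overlapping matches before *B2m* and 5 before *Cd74*, of which 4 overlapped each other, and 42.3% of all windows held it. Both windows also held CCAAT, which is read on the minus strand before *B2m* and was present in 34.0% of all windows. TGACG, the core of the cAMP response element, was found before *B2m* alone (18.2% of all windows), whereas AGCAAC, a core of the X box of class II genes, was found before *Cd74* alone (12.1%). The gamma interferon activation site (TTCNNNGAA) was found before neither gene and in 7.67% of all windows. A match is a run of letters and was not tested as a binding site.

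The libraries held between 13852516 and 16725355 counts assigned to genes, and are named here by their number in the labels, 1 to 6 at p21 and 19 to 24 at p60. Counts on the Y chromosome went against some labels, where libraries 4, 5 and 22, labelled female, held 328, 316 and 269 CPM (counts per 1000000 counts), libraries 6, 23 and 24, also labelled female, held 8.79, 23.2 and 16.1, and the 6 libraries labelled male held 229.2 to 323. Library 3 had also been set aside in earlier work on these data for its counts from the sex chromosomes. On the Y chromosome it held 229.2 CPM, the lowest of the libraries labelled male but far above libraries 6, 23 and 24. Its counts on the X chromosome were not examined here. The age comparisons below are therefore also given without libraries 3, 4, 5 and 22, whereas the comparisons of the lines were made as labelled. The identifiers of the other genes were matched to no names here, so that the remaining antigen presentation genes, the markers of microglia, T cells and retinal cells, and *Foxn1* itself were not analysed here, and the retinal label was not checked against markers.

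*B2m* was higher at p60 than at p21 in both lines, by about the same fold. Levels are given as normalized CPM, in which the library size is first scaled by the trimmed mean of M-values (TMM). At p21, *B2m* stood at 66.2, 59.4 and 51.4 CPM in the immunocompetent libraries 1, 2 and 3, and at 59.7, 50.4 and 62.1 CPM in the athymic libraries 4, 5 and 6. At p60, it stood at 332, 243 and 351 CPM in the immunocompetent libraries 19, 20 and 21, and at 288, 225 and 337 CPM in the athymic libraries 22, 23 and 24. The 6 libraries at p60 all exceeded the 6 at p21, while the lines were intermingled at each age. These levels rested on 675 to 972 counts per library at p21 and 3697 to 5647 at p60.

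Over all 12 libraries, *B2m* rose from 58.2 ± 6.14 CPM at p21 to 295.9 ± 53.0 CPM at p60 (mean ± SD, n = 6 per age). The change was 5.08-fold, with a log2 fold change of 2.34 ± 0.11 (SE; 95% interval 2.10 to 2.59; adjusted p = 6.06e-10, quasi-likelihood test of edgeR, Benjamini-Hochberg adjustment over all genes tested, line as a covariate). In the same fit, 31.7% of the 16069 genes tested were called higher at p60 at an adjusted p-value under 0.05, and the median over all of them was a log2 fold change of 0.015. The size of the *B2m* change was exceeded in the upward direction by 76 genes. In the bulk tissue, more cells that express a gene and more RNA of it per cell cannot be told apart.

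Within the immunocompetent line, *B2m* rose 5.22-fold (log2 fold change 2.38 ± 0.14, SE; adjusted p = 1.56e-06, edgeR, n = 3 per age), where 25.6% of 15412 genes were called higher. Within the athymic line, it rose 4.92-fold (log2 fold change 2.30 ± 0.15, SE; adjusted p = 5.73e-06, edgeR, n = 3 per age), where 25.3% of 15507 genes were called higher. These fits share their libraries with the fit over all 12. Without libraries 3, 4, 5 and 22, the *B2m* log2 fold change was 2.26 over both lines, 2.29 in the immunocompetent line and 2.17 in the athymic line, with adjusted p-values of 3.81e-06, 2.83e-05 and 0.00457 (edgeR). In the athymic line, this fit set library 6 alone at p21, assumed to vary like the others, against libraries 23 and 24 at p60.

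**Figure D1:**
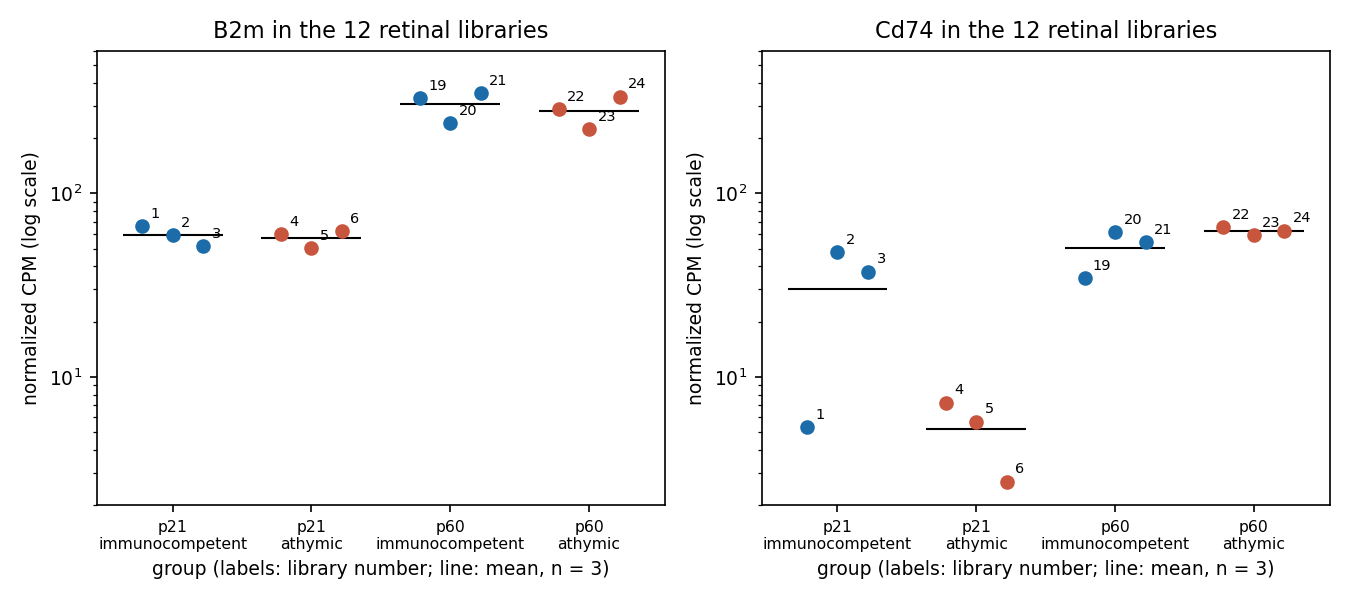
Normalized CPM (log scale) of *B2m* (left) and *Cd74* (right) in each of the 12 libraries, by age and line, where points are libraries with their number and horizontal lines are the means of 3 libraries. All *B2m* points at p60 (225 to 351 CPM) lie above those at p21 (50.4 to 66.2 CPM), whereas the *Cd74* points of libraries 2 and 3 at p21 lie among the p60 points.

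*Cd74*, in contrast, differed widely between libraries of the same age at p21, and its rise to p60 was statistically significant in the athymic line and not in the immunocompetent line. At p21, *Cd74* stood at 5.32, 47.7 and 37.4 CPM in the immunocompetent libraries 1, 2 and 3, and at 7.22, 5.68 and 2.68 CPM in the athymic libraries 4, 5 and 6. At p60, it stood at 34.6, 61.5 and 54.4 CPM in the immunocompetent libraries 19, 20 and 21, and at 65.6, 59.3 and 62.5 CPM in the athymic libraries 22, 23 and 24. Libraries 2 and 3 at p21 were both above library 19 at p60 and below all other p60 libraries. The ages thus overlapped in the immunocompetent line through library 19 alone, whereas the ages were far apart in the athymic line. The 3 athymic libraries at p60 had a coefficient of variation of 5.02%, against 73.3% for the immunocompetent libraries at p21.

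Counting error was small beside these differences. The lowest *Cd74* count, 42 in library 6, had an exact Poisson 95% interval of 30.3 to 56.8 counts, and the 67 counts of library 1 had an interval of 51.9 to 85.1, against 653 to 758 for the 704 counts of library 2. These intervals cover counting error only. Over the 6 libraries at p21, the highest *Cd74* level was 17.8 times the lowest, and 99.4% of the genes tested had a smaller SD of log2 CPM over these libraries, against 50.7% for *B2m*.

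Over all 12 libraries, *Cd74* rose from 17.7 ± 19.6 CPM at p21 to 56.3 ± 11.3 CPM at p60 (mean ± SD, n = 6 per age). These means take no account of line, and a fit without a line term gave a log2 fold change of 1.67 ± 0.55 (SE; adjusted p = 0.0160, edgeR). With line as a covariate, a single change was fitted for both lines, which taken alone gave 0.72 and 3.60 (log2, below). This change was 4.05-fold, with a log2 fold change of 2.02 ± 0.56 (SE; 95% interval 0.81 to 3.23; adjusted p = 0.00649, edgeR). Its SE was larger than that of 97.7% of the genes tested, where the median SE was 0.081. Without libraries 3, 4, 5 and 22, the log2 fold change was 1.75 ± 0.75 (SE) and no longer statistically significant (adjusted p = 0.0803, edgeR).

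In the athymic line, *Cd74* rose from 5.19 ± 2.31 CPM to 62.5 ± 3.14 CPM (mean ± SD, n = 3 per age). This was a 12.1-fold change (log2 fold change 3.60 ± 0.26, SE; adjusted p = 1.14e-05, edgeR), which was exceeded in the upward direction by 18 of the 15507 genes tested. In the immunocompetent line, the means were 30.2 ± 22.1 and 50.2 ± 14.0 CPM, and the 1.65-fold difference was not statistically significant (log2 fold change 0.72 ± 0.55, SE; 95% interval -0.52 to 1.97; adjusted p = 0.300, edgeR). Library 1 and library 2 decided much of this value, where the log2 fold change was 0.24 without library 1 and 1.23 without library 2 (adjusted p = 0.408 and 0.156, edgeR). Without library 19 at p60, it was 0.93 (adjusted p = 0.167, edgeR). Without libraries 3, 4, 5 and 22, the log2 fold change of *Cd74* was 4.49 in the athymic line (adjusted p = 0.000418) and 0.90 in the immunocompetent line (adjusted p = 0.309, edgeR), where the athymic p21 group was again library 6 alone.

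**Figure D2:**
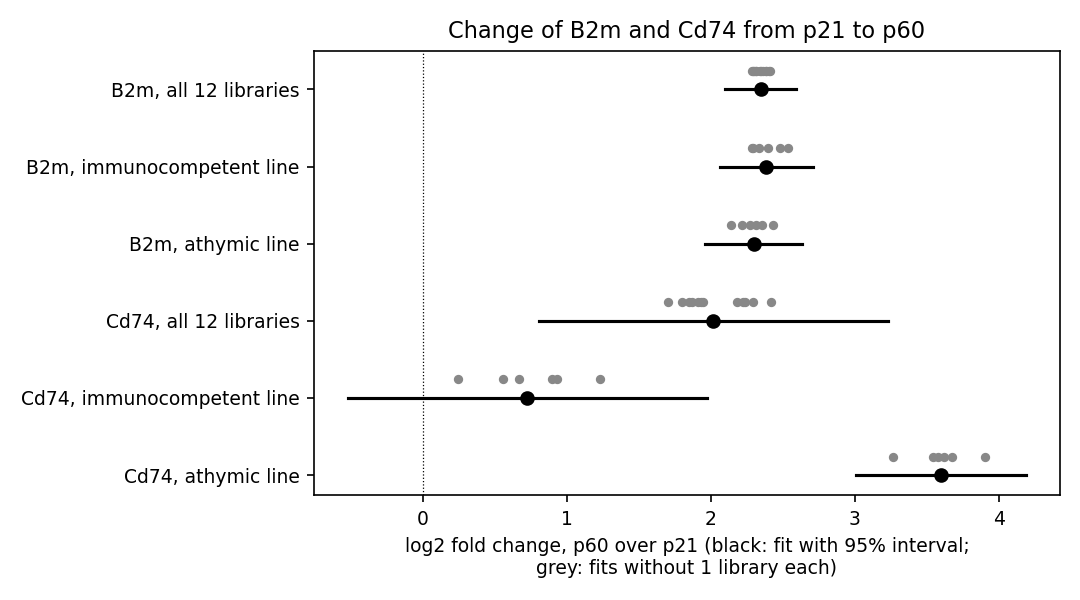
Log2 fold change from p21 to p60 of *B2m* and *Cd74* over all 12 libraries and in each line, where black points are edgeR estimates with 95% intervals and grey points are the fits without 1 library each. The *B2m* estimates lie between 2.30 and 2.38, whereas those of *Cd74* run from 0.72 in the immunocompetent line to 3.60 in the athymic line.

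Whether the lines differed was tested directly. For *B2m*, the interaction of age and line was -0.085 ± 0.224 (log2, athymic minus immunocompetent, SE; 95% interval -0.57 to 0.40; adjusted p = 0.940, edgeR). For *Cd74*, the interaction was 2.87 ± 0.76 on the same scale (SE; 95% interval 1.23 to 4.51), which had an unadjusted p-value of 0.00228 in the edgeR fit and was not statistically significant after adjustment over 16069 genes (adjusted p = 0.208). In that test, 0.00622% of the genes were called. Of the fits that left out 1 library, only that without library 1 passed the threshold for *Cd74* (3.34, adjusted p = 0.00494, edgeR). The others gave adjusted p-values of 0.183 to 0.493 (edgeR). Library 1 had the lowest *Cd74* level of the immunocompetent libraries at p21, and 138 genes were called in the fit without it.

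At p21, *B2m* differed between the lines by -0.032 ± 0.107 (log2, athymic minus immunocompetent, SE; 95% interval -0.27 to 0.21; adjusted p = 0.926, edgeR). For *Cd74*, the difference was -2.55 ± 0.65 on the same scale (SE; unadjusted p = 0.00294), which was not statistically significant after adjustment (adjusted p = 0.268, edgeR). The share of genes called in this comparison was 0%, while 1936 of 15225 genes had an unadjusted p-value under 0.05 and DESeq2 called 140. Within p21, library 1 of the immunocompetent line lay among the athymic libraries at 5.32 CPM, and without it the difference was -3.04 (adjusted p = 0.0163, edgeR). Leaving out this library, the lowest of its line at p21, widens the difference, and 85 genes were called in that fit. Without 1 of the other libraries at p21, the adjusted p-value was 0.190 to 0.633 (edgeR). Libraries 1, 4 and 5, with 5.32, 7.22 and 5.68 CPM of *Cd74*, held Y chromosome counts of 293, 328 and 316 CPM. Libraries 2 and 3, with 47.7 and 37.4 CPM of *Cd74*, held 323 and 229.2 CPM, and library 6, with 2.68 CPM of *Cd74*, held 8.79. The part of sex in the *Cd74* levels was not tested.

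At p60, neither gene differed between the lines beyond the spread of the libraries, where 0.0193% of 15557 genes were called. The difference was -0.12 ± 0.17 for *B2m* (log2, SE; 95% interval -0.52 to 0.28; adjusted p = 0.885) and 0.32 ± 0.18 for *Cd74* (95% interval -0.10 to 0.73; adjusted p = 0.648, edgeR). The *Cd74* value was 0.11 without library 19 and 0.49 without library 20, and was not statistically significant in either fit. Library 19 was the lowest of the 6 p60 libraries in *Cd74* and the third highest in *B2m*.

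The RNA counts of *Cd74*, for class II, were then set against those of *B2m*, for class I, within each library, which does not depend on how libraries are scaled. At p21, there were 8.03, 80.4 and 72.8 *Cd74* counts per 100 *B2m* counts in libraries 1, 2 and 3, and 12.1, 11.3 and 4.32 in libraries 4, 5 and 6. At p60, there were 10.4, 25.4 and 15.5 in libraries 19, 20 and 21, and 22.8, 26.4 and 18.5 in libraries 22, 23 and 24. Libraries 2 and 3 were thus above all p60 libraries, and the athymic libraries at p21 were below all athymic libraries at p60.

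**Figure D3:**
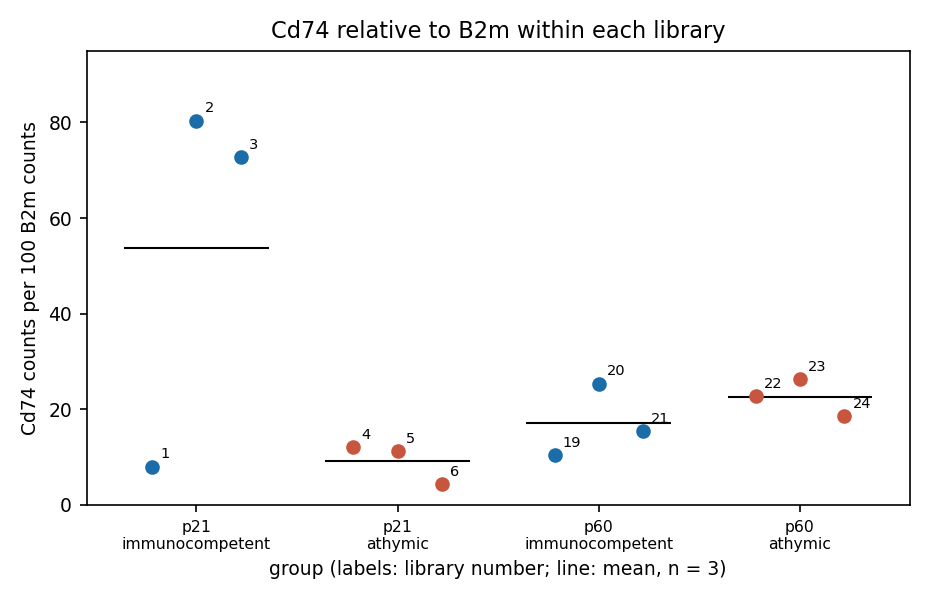
*Cd74* counts per 100 *B2m* counts in each library, by age and line, where points are libraries with their number and horizontal lines are the means of 3 libraries. Libraries 2 and 3 (80.4 and 72.8) stand above the other 10 libraries, which lie between 4.32 and 26.4.

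Over all 12 libraries, the log2 ratio of *Cd74* to *B2m* was -2.52 ± 1.74 at p21 and -2.40 ± 0.51 at p60 (mean ± SD, n = 6 per age), a difference of 0.12 (two-sided exact permutation test, p = 0.877). In the athymic line, the difference was 1.41 on the log2 scale, where the groups did not overlap and p = 0.1 is the smallest that an exact permutation test of 3 against 3 can give. In the immunocompetent line, the difference was -1.17 (exact permutation test, p = 0.4). Between the lines, the ratio differed by -2.11 at p21 and 0.48 at p60 (exact permutation test, p = 0.3 for each). Adjusted over these 5 comparisons by the Benjamini-Hochberg method, the exact permutation p-values were 0.877 for all libraries and 0.5 for each of the other comparisons.

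Per kilobase of exonic length, the mean *B2m* level rose from 31.9 to 162 CPM per kb, and that of *Cd74* from 12.7 to 40.5 CPM per kb. Ranked by this level among the 16069 genes tested, *B2m* moved from place 3285 at p21 to place 331 at p60, and *Cd74* from place 7246 to place 2244. The order of the group means was 3.73 CPM per kb for *Cd74* in the athymic line at p21, 21.7 in the immunocompetent line at p21, 36.1 in the immunocompetent line at p60 and 44.9 in the athymic line at p60. Of these neighbours, no pair was separated at an adjusted p-value under 0.05. Library by library, the *Cd74* level per kb was 106% and 95.6% of that of *B2m* in libraries 2 and 3, and 5.68% to 34.6% in the other 10 libraries. The RNA of both genes was thus at a like level per length in libraries 2 and 3 at p21.

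Genes with the most similar pattern were sought by the root mean square (RMS) difference of mean-centred log2 CPM over the 12 libraries, among 13546 genes whose mean log2 CPM was 1 or more. For *B2m*, the closest genes lay on chromosomes 4 and 16 at an RMS of 0.136 each, and 109 of the 13546 genes lay within 0.5. This cut was the same for both members, although the SD of log2 CPM over the 12 libraries was 1.23 for *B2m* and 1.70 for *Cd74*. For *Cd74*, only 2 genes lay within 0.5. These were ENSRNOG00000032708 (chr20:4039413-4049711, plus strand; RMS 0.379) and ENSRNOG00000000451 (chr20:4066132-4070721, minus strand; RMS 0.382), which lie 16.4 kb apart on the chromosome that carries the rat MHC. The RMS between *B2m* and *Cd74* was 1.16, which made *B2m* the gene of rank 167 by closeness to *Cd74* (median RMS of all genes 1.64) and *Cd74* that of rank 5859 by closeness to *B2m* (median 1.20).

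The first of these genes stood at 0.476, 8.06 and 5.67 CPM in libraries 1, 2 and 3, and at 1.29, 0.673 and 0.639 CPM in libraries 4, 5 and 6. At p60 it stood at 5.01, 8.06 and 5.16 CPM in libraries 19, 20 and 21, and at 9.16, 7.36 and 7.12 CPM in libraries 22, 23 and 24. It was thus high in libraries 2 and 3 and low in the other 4 libraries at p21, as *Cd74* was. The second stood at 2.06, 17.2 and 12.6 CPM in libraries 1, 2 and 3, at 2.29, 1.27 and 0.447 CPM in libraries 4, 5 and 6, and between 8.38 and 20.4 CPM at p60. Its lowest level, in library 6, rested on 7 counts. Of the 10 genes closest to *Cd74*, 5 lay on chromosome 20, which held 2.82% of the genes compared, and 4 of these lay within chr20:3973420-4097190. None of the 10 genes closest to *B2m* lay on chromosome 20. These are descriptions over libraries that share an age contrast and carry no test. The genes were picked for the closeness of their profiles over these same libraries, so that their likeness in level follows from the choice.

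**Figure D4:**
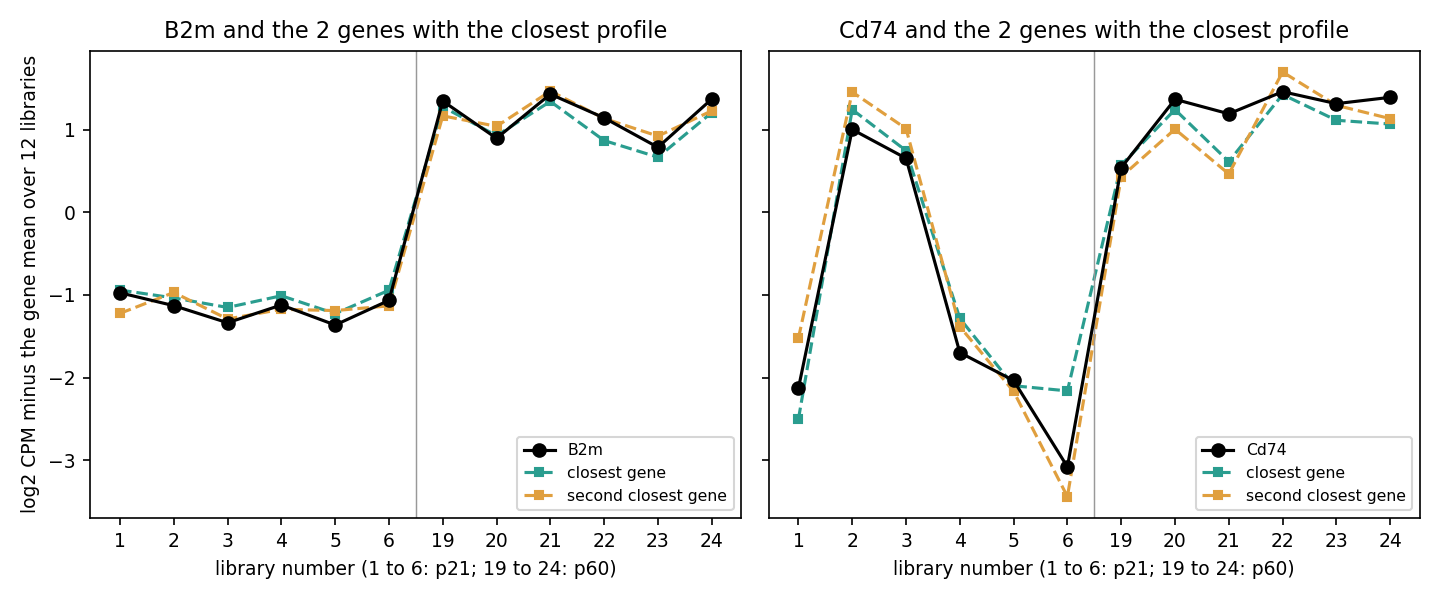
Log2 CPM minus the mean of the gene over the 12 libraries for *B2m* (left) and *Cd74* (right), each with the 2 genes of the closest profile, where the vertical line separates p21 (libraries 1 to 6) from p60 (libraries 19 to 24). The *B2m* profiles form a single step between the ages, whereas the *Cd74* profiles are high in libraries 2 and 3 at p21 as well as at p60.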

How the data were processed

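Whole retinas of RCS rats were sequenced as 12 poly(A)-selected, paired-end libraries (NEBNext Ultra II RNA), and the authors deposited raw counts per gene for each library. Per the submitters' processing notes, reads were mapped with STAR 2.5.2b to Rnor_6.0 and counted with featureCounts of Subread 1.5.2. The annotation release, the strand setting and the treatment of reads with several positions are not given in the sources used here. Groups followed the labels, and since nothing says how the retinas were sampled within a group, p-values measure the spread between these samples.

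Genes were kept with edgeR's filterByExpr (minimum count 10, minimum total 15), scaled with TMM and tested with the quasi-likelihood test of edgeR, adjusting p-values by the Benjamini-Hochberg method over all genes tested at a threshold of 0.05 (R 4.3.3, edgeR 4.0.16; a prior count of 2 for log2 CPM), after the procedure was tested on simulated data. DESeq2 1.42.0, other scalings and filters, and fits without libraries were alternatives. Intervals of fold changes used the t distribution, and ratios were tested with exact permutation tests in scipy 1.17.1. Plots were drawn with matplotlib 3.10.9. The genes named were both members and, for *Cd74*, the 2 genes of the smallest RMS difference, while those for *B2m* are given by chromosome. Pathway and marker lists were planned, but 0 identifiers matched the RefSeq table. The members, lists and alternatives were chosen with earlier results of these data known, and the motifs after the sequences were seen.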

Additional observations from a re-analysis of the deposited data

Results flagged for a closer look

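The *Cd74* level of library 19 stood apart at p60, where its 34.6 CPM was the lowest of the 6 libraries of that age, the next was 54.4 CPM and the highest was 65.6 CPM. The gap took 0.641 of the whole range, above Dixon's 95% critical value of 0.625 for 6 values. This was 1 of 6 sets of 6 libraries tested, and chance flags about 1 set in 20. Without libraries 4, 19 and 24, which had stood apart in earlier work on these data, the *Cd74* log2 fold change over both lines was 2.03 (adjusted p = 0.0111, edgeR).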

How the results depend on the processing

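The *B2m* rise from p21 to p60 over both lines and in each line kept its direction under every alternative run. It kept its significance in every fit with more than 1 library at each age. The fit of the athymic line without libraries 3, 4, 5 and 22 left 1 library at p21. Over both lines, the alternatives, some of them with libraries left out, lay between 2.26 and 2.53 on the log2 scale. The *Cd74* rise over all libraries lost significance without libraries 3, 4, 5 and 22 (1.75, adjusted p = 0.0803, edgeR) and lay between 1.70 and 2.41 when 1 library was left out. An exact permutation test of log2 CPM over all 12 libraries, chosen after seeing the data, gave p = 0.00216 for *B2m*, the smallest it can give, and p = 0.00649 for *Cd74*. The *Cd74* difference between the lines passed the threshold with no filter on low counts. This held for the interaction (2.89, adjusted p = 0.0325, edgeR) and at p21 (-2.54, adjusted p = 0.00639, edgeR). Of the fits that left out 1 library, only that without library 1 passed it in either comparison. With 1 library left out, the *Cd74* difference ranged from 2.36 to 3.34 for the interaction and from -3.04 to -2.05 at p21. The *Cd74* difference at p60 ranged from 0.11 to 0.49 with 1 library left out. For the interaction and at p21, DESeq2 gave adjusted p = 0.148 and 0.166, respectively.

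Values near 0 changed sign when 1 library was left out. These were the *B2m* interaction (-0.231 to 0.056), the *B2m* difference between the lines at p21 (-0.116 to 0.058) and at p60 (-0.274 to 0.017), and the change of the *Cd74* to *B2m* ratio (-0.281 to 0.562). The cause was not tested. Counts of genes called also moved. The athymic line gave 3342 in place of 7740 genes without libraries 3, 4, 5 and 22, where fewer libraries entered the fit. The interaction, with 1 gene, gave 115 with no filter, 146 with DESeq2, 0 with at least 10 counts in every library and 3 without libraries 4, 19 and 24. The lines at p21, with 0 genes, gave 282 with no filter and 140 with DESeq2, and at p60, with 3 genes, they gave 11, 106 and, without libraries 4, 19 and 24, 179. With 1 library left out, these counts ran from 1 to 138, 0 to 85 and 0 to 61. The comparisons of the lines were not run without libraries 3, 4, 5 and 22. No paired analysis was possible because the libraries of different groups share no replicate number.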
